A study of Mus musculus with 6 samples.

Results

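The genes examined are 33 that make, regulate, move, store or export cholesterol, taken by symbol from a table of 55860 genes counted in mouse ovarian granulosa cells. They comprise 19 enzymes of cholesterol synthesis (8 of the mevalonate steps and 11 of the sterol steps), 5 genes around the transcription factor SREBP2, 4 genes of uptake and transport, 2 of cholesterol ester turnover and 3 of efflux. Granulosa cells are the somatic cells that enclose the oocyte in a follicle. Cells of Il22r+/+ mice (3 libraries) and of Il22r-/- mice (3 libraries), which lack a receptor of the cytokine interleukin-22, were purified on a density gradient and kept for 12 h in medium with 10% fetal bovine serum before RNA was taken. The labels give no deleted exon, no promoter or Cre, no age of the mice and no treatment, and they do not say whether the 3 libraries of a genotype came from separate animals, so p-values measure only the spread between these libraries, which may be technical.

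Cholesterol is built from acetyl-CoA through mevalonate, isoprenoid units, squalene and lanosterol. When the sterol content of the endoplasmic reticulum falls, the escort protein SCAP carries SREBP2 to the Golgi, where it is cut, and the released fragment switches on the synthesis enzymes and lipoprotein uptake; INSIG proteins hold SCAP back when sterol is plentiful. Surplus cholesterol is esterified, or is exported by ABC transporters whose genes respond to the liver X receptors. Steroid-making cells of the ovary also use cholesterol, free or released from stored ester, as the substrate of their hormones.

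Counted reads per library ran from 14.95 to 18.12 M, and a gene's level is given as CPM (counts scaled to a common library size by TMM) unless FPKM (per length, as the authors deposited it) is named. Values after ± are SDs over 3 libraries for levels and standard errors for log2 changes, which are Il22r-/- minus Il22r+/+ throughout. In a principal component analysis of the 500 most variable genes the genotypes separated on component 1 (89.35% of the variance), and Il22r-/- replicate 3 lay at 14.48 on component 2 (4.21% of the variance) and the remaining libraries between -8.929 and 1.224. Il22ra1, taken as the targeted gene, had 10 reads in all Il22r+/+ libraries together and 7 in all Il22r-/- libraries, too few to check the labels. The 12 granulosa markers summed to 6288 to 6959 CPM in Il22r+/+ and 6561 to 7142 CPM in Il22r-/-, although Cyp19a1, the aromatase that defines oestrogen-making granulosa cells, was at 1.48 CPM or less in every library. Single granulosa markers moved both ways, 5 of 11 tested being higher in Il22r-/- and 3 lower, and Inha and Inhba make up most of the sum. The follicle-stimulating hormone receptor gene Fshr (log2 change 4.5, from 0.257 to 5.99 CPM), Nr5a2 (1.73), Amhr2 (1.47), Inhba (0.70) and Esr2 (0.30) were higher, and Gata4 (-1.08), Nr5a1 (-0.53) and Foxl2 (-0.47) were lower. Markers of other cells also moved: for macrophages, 10 of 11 tested were higher in Il22r-/- (12 listed, summed to 10.98 to 13.8 against 30.9 to 91.0 CPM), and 4 of 6 mesothelial and surface markers were lower (258.3 to 263.1 against 25.3 to 42.1 CPM). Of the 5 stromal markers 1 was higher (Col1a2, from 1.61 to 61.3 CPM) and 1 lower (Dcn, from 242.7 to 10.6 CPM). The stromal markers summed to 334.9 to 430.1 CPM in Il22r+/+ and 133.2 to 255.3 CPM in Il22r-/-. Of the 5 smooth muscle markers 3 were higher and 1 lower, and of 3 tested endothelial markers 2 were higher and 1 lower. The 1 tested theca marker was higher, and neither tested oocyte marker was called. No defining marker was at 0 in all libraries. The part of these cells in the values below was not tested, and in bulk libraries fewer cells of a type and less RNA per cell cannot be told apart.

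Most of the cholesterol genes were lower in Il22r-/- cells. All 33 passed the filter on low counts, 24 were called lower and 1, Mylip, was called higher in edgeR's quasi-likelihood fit at an adjusted p under 0.05 (Benjamini-Hochberg over all tested genes). Among all 15227 tested genes 45.7% were called, 22.1% lower and 23.6% higher, so the 72.7% of members called lower stood above the lower share of the whole table and the single higher call below the higher share. The members' median log2 change was -0.64, against 0.03 over all tested genes. In 25 members every Il22r-/- library lay below every Il22r+/+ library, which holds for 27.3% of tested genes, and in 1 member every Il22r-/- library lay above, which holds for 28.7% (56.0% in either direction). Falls of at least 1 on the log2 scale, that is 2-fold, were fitted for 7 members (21.2%, against 6.83% of tested genes). Without Il22r-/- replicate 3, 26 members were called lower and 2 higher, including all 25 called with it, while 52.6% of tested genes were then called.

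**Figure D1:**
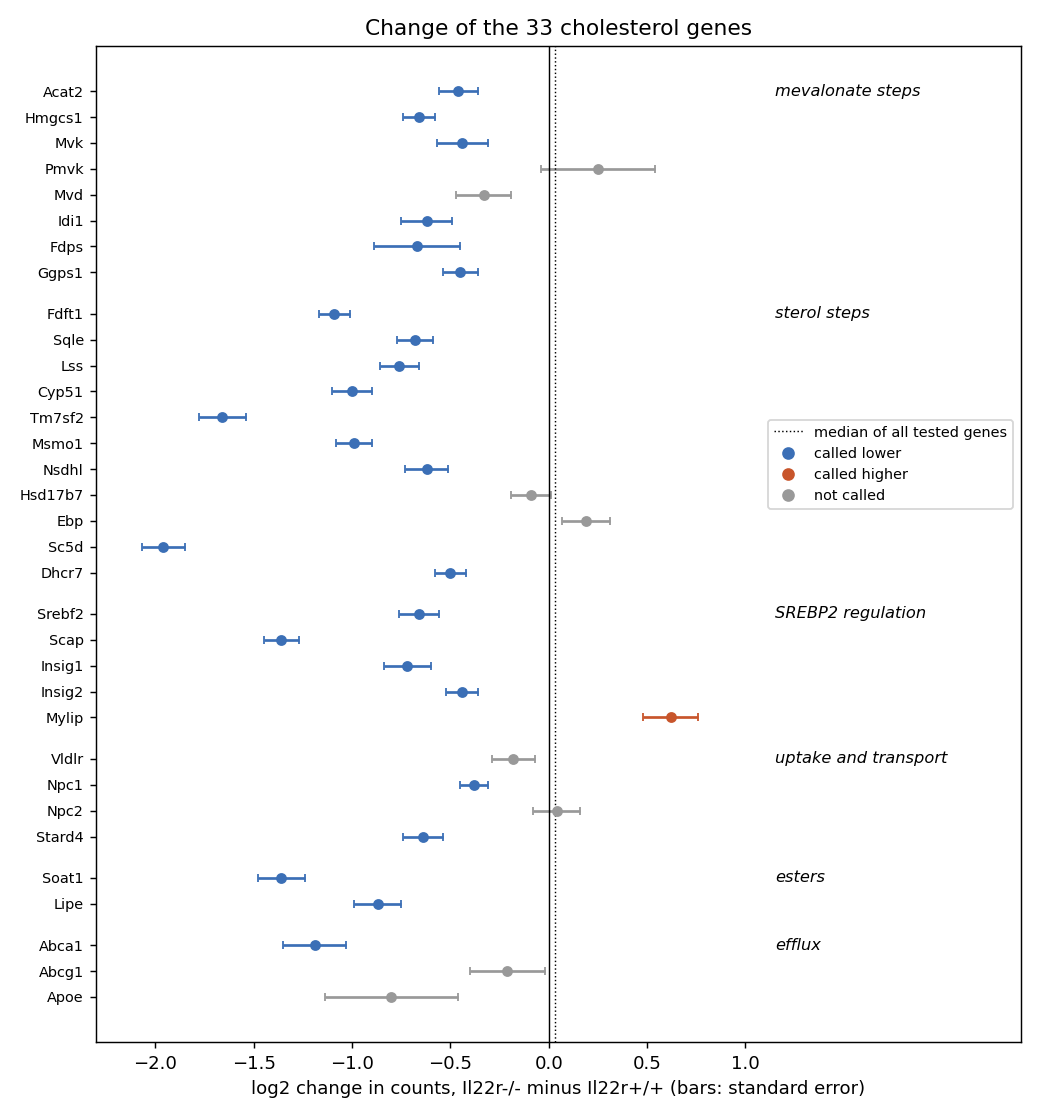
Log2 change of each of the 33 genes (horizontal axis, Il22r-/- minus Il22r+/+, bars are the standard error of the edgeR fit) grouped by role, with the median of all tested genes as a dotted line. The points called lower lie between -0.38 for Npc1 and -1.96 for Sc5d, and Mylip at 0.62 is the one point called higher.

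The stretches of promoter shown here belong to members on which the results turn: Hmgcs1, an early synthesis enzyme, Sc5d, which had the largest fall of the 33, Abca1, the efflux transporter, and Mylip, which rose. Each is the 250 bases before the RefSeq start on GRCm38.p6 (the mm10 assembly), written 5′ to 3′ on the strand of the gene. They lie at chr13:119690101-119690350 (Hmgcs1, plus strand), chr9:42264301-42264550 (Sc5d, minus strand), chr4:53159896-53160145 (Abca1, minus strand) and chr13:45389492-45389741 (Mylip, plus strand). Capitals mark the letters searched on both strands: the core of the sterol regulatory element that SREBP2 is known to bind (TCACNCCAC), the box of the factor NF-Y (CCAAT, which reads ATTGG on the other strand) and the GC box of Sp1 (GGGCGG, or CCGCCC on the other strand), and no match overlaps another in these stretches.
Hmgcs1: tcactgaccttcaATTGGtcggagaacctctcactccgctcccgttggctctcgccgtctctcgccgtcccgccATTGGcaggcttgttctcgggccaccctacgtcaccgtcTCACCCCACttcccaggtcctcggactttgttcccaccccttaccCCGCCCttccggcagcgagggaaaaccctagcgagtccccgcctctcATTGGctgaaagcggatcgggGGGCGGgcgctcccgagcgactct
Sc5d: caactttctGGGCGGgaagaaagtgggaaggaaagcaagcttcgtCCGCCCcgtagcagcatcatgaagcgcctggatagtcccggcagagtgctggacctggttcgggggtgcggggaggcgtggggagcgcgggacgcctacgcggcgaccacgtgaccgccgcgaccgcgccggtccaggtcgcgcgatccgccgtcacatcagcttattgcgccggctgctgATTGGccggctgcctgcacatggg
Abca1: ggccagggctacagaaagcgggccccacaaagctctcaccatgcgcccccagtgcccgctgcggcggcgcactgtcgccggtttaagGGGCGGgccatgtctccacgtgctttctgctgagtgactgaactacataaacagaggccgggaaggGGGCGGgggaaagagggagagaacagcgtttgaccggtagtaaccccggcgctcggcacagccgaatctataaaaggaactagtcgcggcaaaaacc
Mylip: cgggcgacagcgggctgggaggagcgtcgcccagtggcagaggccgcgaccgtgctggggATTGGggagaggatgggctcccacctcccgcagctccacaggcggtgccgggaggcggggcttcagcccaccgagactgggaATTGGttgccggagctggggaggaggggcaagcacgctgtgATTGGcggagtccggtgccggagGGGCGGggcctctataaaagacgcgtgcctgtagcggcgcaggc
The Hmgcs1 stretch holds 1 match to the sterol element core, its first base at -137 from the start, with 3 NF-Y boxes and 2 GC boxes. Sc5d holds 1 NF-Y box and 2 GC boxes, Abca1 holds 2 GC boxes and no NF-Y box, and Mylip holds 3 NF-Y boxes and 1 GC box.

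Of the 33 members 27 had a promoter window in the RefSeq table, of 300 bases (250 before and 50 after the start), and Abcg1, Fdft1, Fdps, Npc1, Sqle and Stard4 had none. An NF-Y box was found in the windows of 22 of the 27 (81.5%), against 43.0% of 10654 tested genes with a window of the same length. Its holders included Mylip, which rose, and Pmvk, Mvd, Hsd17b7, Ebp, Npc2 and Vldlr, which were not called. Abca1, Acat2, Lipe and Scap were called lower and had a window without it. A GC box was found in 24 of 27 (88.9%) against 68.6%. The sterol element core, in this strict spelling, was found in 1 of 27 (3.7%) against 1.43%. Over all genes of the table, tested or not, the shares were 41.1%, 38.2% and 1.44%. Among genes called lower and genes called higher in Il22r-/-, the shares were 43.1% and 44.2% for the NF-Y box, 72.4% and 68.9% for the GC box and 1.76% and 1.04% for the sterol element core, differences that were not tested. The members had 1.37 windows per gene and all tested genes 1.28, and a gene counts as holding a motif when any of its windows does. These matches describe letters in a window and were not tested as binding sites.

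The mevalonate steps had the smaller change of the 2 synthesis stages, with a median log2 change of -0.46 for 8 enzymes against -0.76 for the 11 enzymes of the sterol steps; that difference was not tested. Of the 8, 6 were called lower and none higher. Hmgcs1 (ENSMUSG00000093930, mm10 chromosome 13, 119690379 to 119708260, plus strand) makes HMG-CoA from acetoacetyl-CoA and was the most abundant of them per length, at 34.9 ± 2.23 FPKM (SD, n = 3) in Il22r+/+ and 21.7 ± 0.971 FPKM in Il22r-/-. Its level was 151, 149 and 167 CPM in Il22r+/+ replicates 1 to 3 and 95.9, 104 and 97.0 CPM in Il22r-/- replicates 1 to 3. The groups were well apart, with a log2 change of -0.66 ± 0.08 (standard error; edgeR quasi-likelihood adjusted p = 6.37e-05). The opposite-strand gene Gm48342 overlaps 12.1% of the Hmgcs1 exon bases. Of the 50-base stretches of Hmgcs1 transcripts 11.6% also occur in transcripts of other genes.

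Idi1, which interconverts the isoprenoid units, had 20.0, 19.2 and 22.5 CPM in Il22r+/+ and 12.0, 12.9 and 15.2 CPM in Il22r-/-. All 3 Il22r-/- values were lower, and the log2 change was -0.62 ± 0.13. Of its 50-base stretches 25.3% also occur in transcripts of other genes, so its level is uncertain. Fdps, the farnesyl diphosphate synthase, was the least abundant member per length in both genotypes, at 1.07 and 0.664 FPKM. Its 67, 75 and 81 Il22r+/+ reads stood above the 46, 50 and 49 of Il22r-/-, with a log2 change of -0.67 ± 0.22 (edgeR adjusted p = 0.0278). That call rested on most of the libraries, being lost without Il22r+/+ replicate 2 (adjusted p = 0.0708) or 3 (0.0894), without Il22r-/- replicate 1 (0.0787) or 2 (0.073), with scaling by library size alone (0.0515) and in limma on unfiltered FPKM (0.0705). Its adjusted p ran from 0.0126 upward across alternatives. The gene Gm43738 shares 26.7% of the Fdps exon bases on the same strand, and 26.2% of the 50-base stretches of Fdps transcripts also occur in transcripts of other genes, so its counts are uncertain.

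Acat2, the thiolase that joins acetyl-CoA units, had 28.8, 28.4 and 30.0 CPM in Il22r+/+ and 21.1, 23.3 and 19.0 CPM in Il22r-/- (log2 change -0.46 ± 0.10). Its values did not overlap, but 39.1% of its 50-base stretches also occur in transcripts of Acat3, Tcp1 or both, the largest share of any member, so its level is uncertain in the same way. Ggps1, which makes the geranylgeranyl chains used in protein prenylation, changed by -0.45 ± 0.09. Mvk, the mevalonate kinase, changed by -0.44 ± 0.13 (edgeR adjusted p = 0.0158) and lost its call without Il22r+/+ replicate 1 (0.0585) or 3 (0.0603) or Il22r-/- replicate 1 (0.0516), in a range from 0.00366.

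The 2 mevalonate enzymes that were not called act next to each other. Pmvk, the phosphomevalonate kinase, had 8.72, 6.21 and 10.5 CPM in Il22r+/+ and 10.0, 13.8 and 6.24 CPM in Il22r-/-, so the groups overlapped, with a log2 difference of 0.25 ± 0.29. Mvd, the decarboxylase that follows it, had 30.1, 20.7 and 26.8 CPM against 20.7, 22.4 and 18.7 CPM. Its log2 difference of -0.33 ± 0.14 missed the threshold (edgeR adjusted p = 0.0835) and passed it without Il22r+/+ replicate 2 (-0.47, adjusted p = 0.018) and when low genes were kept (0.0313). Its adjusted p reached 0.315 in another alternative.

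**Figure D2:**
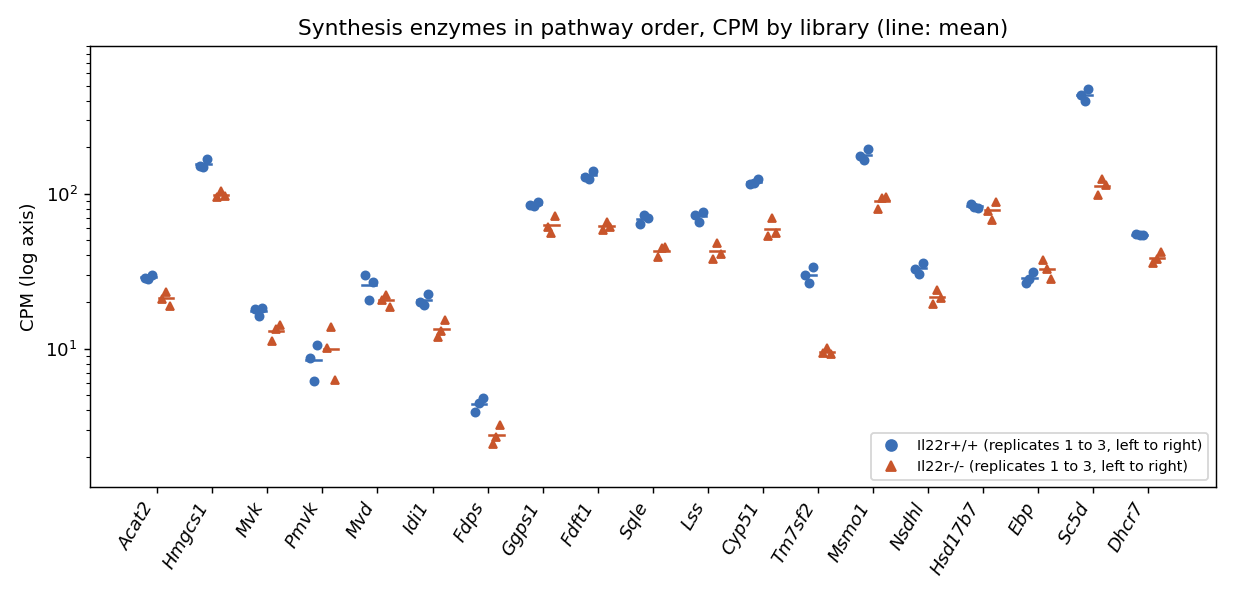
CPM of the 19 synthesis enzymes in each library (log axis; circles Il22r+/+, triangles Il22r-/-, lines the means of 3), in the order of the pathway. Sc5d stands highest in Il22r+/+ at 401 to 479 CPM and falls to 98.4 to 123.9 CPM, while Pmvk, Mvd, Hsd17b7 and Ebp are the enzymes whose groups overlap.

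In the sterol steps 9 of 11 enzymes were called lower and none higher, and 4 of them had a log2 change of -1 or below (Cyp51 at -1.00, Fdft1, Tm7sf2 and Sc5d). Sc5d (ENSMUSG00000032018, chromosome 9, 42251595 to 42264256, minus strand) encodes the desaturase that acts one step before 7-dehydrocholesterol reductase. It had 432.9, 401 and 479 CPM in Il22r+/+ and 98.4, 123.9 and 115 CPM in Il22r-/-. Every Il22r+/+ value was well over the highest Il22r-/- value, and the fitted fall was 3.89-fold (log2 change -1.96 ± 0.11, edgeR quasi-likelihood adjusted p = 5.3e-07).

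Tm7sf2, a sterol C14 reductase, had 30.1, 26.5 and 33.8 CPM in Il22r+/+ and 9.35, 10.0 and 9.20 CPM in Il22r-/-. The Il22r-/- libraries differed little among themselves, and the log2 change was -1.66 ± 0.12. Vps51 covers 12.1% of its exon bases on the same strand. Fdft1, the squalene synthase at which carbon is committed to sterols, had 129, 125 and 141 CPM against 58.8, 66.3 and 61.2 CPM (log2 change -1.09 ± 0.08). Ctsb, on the opposite strand, overlaps 18.3% of the Fdft1 exon bases, and 26.5% of the 50-base stretches of Fdft1 also occur in transcripts of Ctsb or Gm6781, so its level is uncertain too. The strand setting of the counting is not given in the sources used here.

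Cyp51, the lanosterol demethylase, had 115, 118 and 125 CPM in Il22r+/+ and 53.6, 69.5 and 55.7 CPM in Il22r-/-, a change of 2.00-fold downward (log2 change -1.00 ± 0.10). The highest Il22r-/- value lay well under the lowest Il22r+/+ value. Msmo1, which oxidises the methyl groups at carbon 4 of the sterol, changed by -0.99 ± 0.09, and Lss, which closes the rings to lanosterol, by -0.76 ± 0.10. Sqle, the squalene epoxidase and a rate-limiting step, changed by -0.68 ± 0.09. Nsdhl, which works with Msmo1, changed by -0.62 ± 0.11, and Dhcr7, which makes cholesterol from 7-dehydrocholesterol, by -0.50 ± 0.08. None of these 5 overlapped between the genotypes.

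The 2 sterol enzymes that were not called were Hsd17b7 and Ebp. Hsd17b7, the ketosteroid reductase that follows Nsdhl, had 86.5, 82.2 and 80.8 CPM in Il22r+/+ and 78.0, 67.7 and 89.1 CPM in Il22r-/-. Ebp, the sterol isomerase just before Sc5d, had 26.7, 28.2 and 31.1 CPM against 37.2, 32.6 and 28.1 CPM. In both genes Il22r-/- replicate 3 was the library that made the groups overlap. Their log2 differences were -0.09 ± 0.10 and 0.19 ± 0.12 (edgeR adjusted p = 0.483 and 0.21). Without Il22r-/- replicate 3 Hsd17b7 was called lower (-0.21, adjusted p = 0.0242) and Ebp higher (0.26, adjusted p = 0.0344), with adjusted p as high as 0.962 and 0.644 in other alternatives.

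Summed per length, the 19 synthesis enzymes had 356, 337 and 384 FPKM in Il22r+/+ and 184, 204 and 196 FPKM in Il22r-/-, the highest Il22r-/- sum being well below the lowest Il22r+/+ sum. The means were 359 ± 23.9 and 195 ± 10.1 FPKM (SD, n = 3), a ratio of 1.84, and 1.55 without Sc5d. Sc5d alone supplied 25.1% to 26.4% of the sum in Il22r+/+ and 10.98% to 12.6% in Il22r-/-. The sum of the sterol steps was 2.09 times as high in Il22r+/+ as in Il22r-/-, and that of the mevalonate steps 1.41 times. Of the 19 enzymes, 15 were highest in replicate 3 among the Il22r+/+ libraries. Among the Il22r-/- libraries 12 were lowest in replicate 1, while 10 were highest in replicate 2 and 8 in replicate 3. The same counts were not made over all tested genes, so this order is not shown to be particular to the enzymes.

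**Figure D3:**
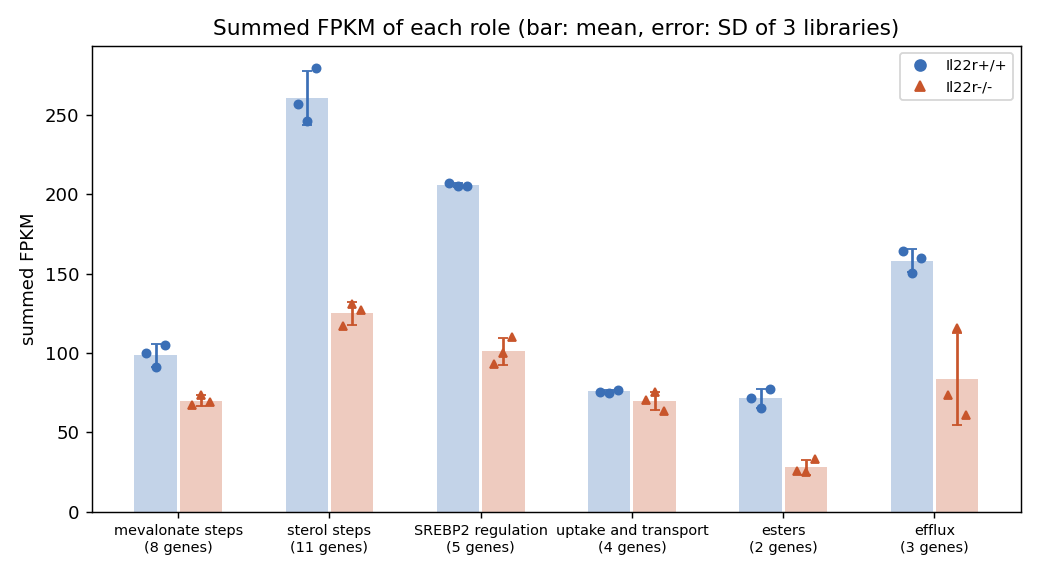
Summed FPKM of each role (bars are the mean of 3 libraries from 0, error bars the SD, points the libraries). The Il22r-/- libraries lie below the Il22r+/+ libraries in all roles but uptake and transport, where the means are 75.8 and 69.7 FPKM and the libraries overlap.

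All 5 genes grouped around SREBP2 changed, 4 lower and Mylip higher. Srebf2, the gene of SREBP2 itself (ENSMUSG00000022463, chromosome 15, 82147181 to 82205379, plus strand), had 210.1, 208 and 217 CPM in Il22r+/+ and 119, 127 and 156 CPM in Il22r-/-. The groups were apart by more than the spread within either, with a log2 change of -0.66 ± 0.10 (edgeR adjusted p = 0.000395). Protein levels and cleavage of SREBP2 were not measured.

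Scap, its escort (ENSMUSG00000032485, chromosome 9, 110333288 to 110384950, plus strand), was the most abundant member per length in Il22r+/+, at 132 ± 0.603 FPKM, and had 50.8 ± 5.85 FPKM in Il22r-/-. Its values were 963, 958 and 956 CPM in Il22r+/+ and 339, 368 and 417 CPM in Il22r-/-. The Il22r+/+ libraries were nearly equal, and the fall was 2.56-fold (log2 change -1.36 ± 0.09). The opposite-strand gene 5830462I19Rik overlaps 13.2% of the Scap exon bases.

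Insig1, an anchor of SCAP and itself a known SREBP target, had 58.0, 53.2 and 50.04 CPM in Il22r+/+ and 26.9, 38.1 and 32.6 CPM in Il22r-/- (log2 change -0.72 ± 0.12). Insig2, the other anchor, had 72.3, 77.6 and 72.4 CPM against 58.8, 51.7 and 53.6 CPM (log2 change -0.44 ± 0.08). Neither gene overlapped between the genotypes. Per length Insig2 stood above Insig1 in both genotypes, at 21.9 ± 0.849 against 17.9 ± 1.32 FPKM in Il22r+/+ and 15.9 ± 0.976 against 10.6 ± 1.87 FPKM in Il22r-/-.

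Mylip (ENSMUSG00000038175, chromosome 13, 45389742 to 45412022, plus strand) encodes IDOL, a ubiquitin ligase that is induced by liver X receptors and marks lipoprotein receptors for degradation. It had 10.6, 8.71 and 10.9 CPM in Il22r+/+ and 16.9, 15.3 and 14.3 CPM in Il22r-/-. All Il22r-/- values were higher, by 1.54-fold in the fit (log2 change 0.62 ± 0.14, edgeR quasi-likelihood adjusted p = 0.00371). With at most 10.9 CPM in Il22r+/+ it was among the 3 least abundant members per length there, at 3.2 ± 0.382 FPKM.

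In uptake and transport 2 of 4 genes were called lower and none higher. Vldlr, a lipoprotein receptor and known IDOL substrate, had 193, 194 and 173 CPM in Il22r+/+ and 138, 171 and 185 CPM in Il22r-/-. The groups overlapped through Il22r-/- replicate 3, and the log2 difference was -0.18 ± 0.11 (edgeR adjusted p = 0.195); without that library Vldlr was called lower (-0.29, adjusted p = 0.026, in a range up to 0.545). Npc1, which takes cholesterol out through the lysosomal membrane, had 85.5, 87.8 and 83.0 CPM against 66.0, 64.8 and 65.6 CPM, narrow groups with a log2 change of -0.38 ± 0.07. Npc2, which hands cholesterol to NPC1 inside the lysosome, had 223, 222 and 244 CPM against 257, 262 and 191 CPM. Its groups overlapped through Il22r-/- replicate 3 and its log2 difference was 0.04 ± 0.12, so the lysosomal partners did not share a call. Without that library the Npc2 difference was 0.16 (edgeR adjusted p = 0.0548), still not called, and in another alternative it was -0.05. Stard4, a cytosolic sterol carrier known as an SREBP2 target, had 31.6, 29.8 and 29.5 CPM against 18.4, 21.1 and 18.7 CPM (log2 change -0.64 ± 0.10).

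Both genes of ester turnover fell. Soat1 (ENSMUSG00000026600, chromosome 1, 156424525 to 156474331, minus strand), the acyltransferase that makes cholesterol esters for storage, had 651, 592 and 698 CPM in Il22r+/+ and 231, 224 and 300.4 CPM in Il22r-/-. The Il22r-/- values were all far below, with a fall of 2.57-fold (log2 change -1.36 ± 0.12, edgeR quasi-likelihood adjusted p = 1.18e-05). Lipe, the hormone-sensitive lipase that releases cholesterol from stored ester, had 20.1, 20.0 and 23.6 CPM against 12.6, 10.5 and 11.8 CPM (log2 change -0.87 ± 0.12). Per length Soat1 was 17.8 to 19.5 times as abundant as Lipe in Il22r+/+ libraries and 11.02 to 15.4 times in Il22r-/- libraries. Of the Lipe exon bases 15.6% are overlapped by 4732471J01Rik on the opposite strand.

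**Figure D4:**
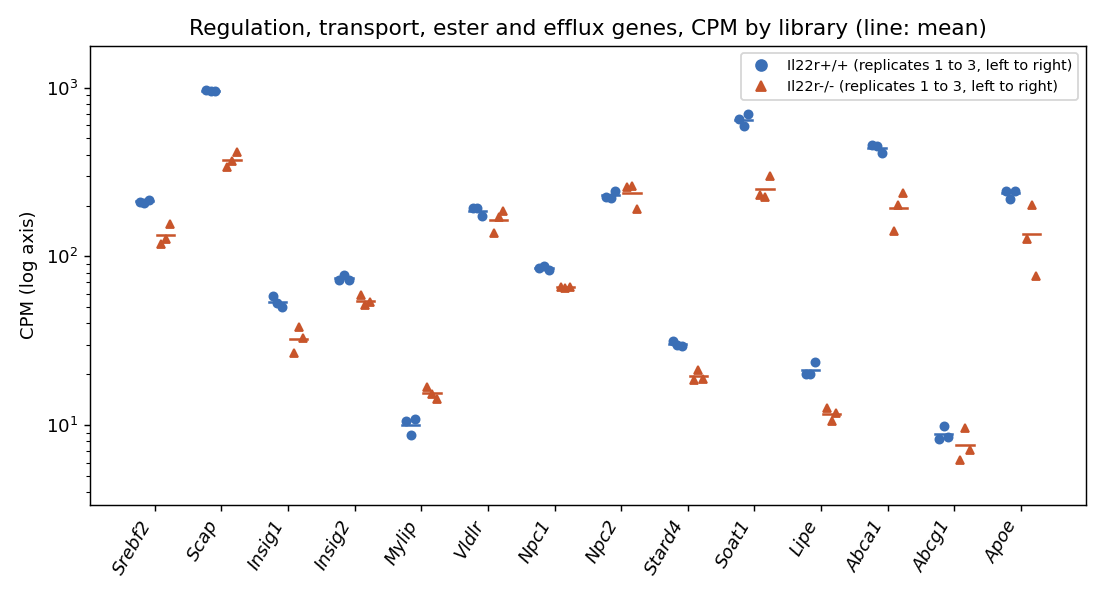
CPM of the 14 genes of regulation, uptake, ester turnover and efflux in each library (log axis; circles Il22r+/+, triangles Il22r-/-, lines the means of 3). Scap, Soat1 and Abca1 show the widest gaps between the genotypes, Mylip lies higher in Il22r-/-, and Vldlr, Npc2 and Abcg1 overlap.

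Of the efflux genes Abca1 fell. Abca1 (ENSMUSG00000015243, chromosome 4, 53030787 to 53159895, minus strand) loads cholesterol onto lipid-poor apolipoproteins. It had 456, 451 and 410.5 CPM in Il22r+/+ and 141, 201 and 236 CPM in Il22r-/-, a wide spread in Il22r-/- that stayed below all Il22r+/+ values (log2 change -1.19 ± 0.16, edgeR adjusted p = 0.000463). Abcg1, which loads mature lipoprotein particles, had 8.25, 9.91 and 8.47 CPM against 6.2, 9.66 and 7.09 CPM. Those groups overlapped, and the log2 difference was -0.21 ± 0.19. Abca1 and Abcg1 are both known targets of liver X receptors, as Mylip is, and had a fall and no call where Mylip had a rise. These 3 genes are not a full set of such targets, and the activity of the receptors was not tested.

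Apoe, the apolipoprotein that accepts exported cholesterol, was the second most abundant member per length in Il22r+/+ (113 ± 7.74 FPKM) and the most abundant in Il22r-/- (63.7 ± 29.5 FPKM, a spread that takes in the 50.8 FPKM of Scap). It had 245, 218 and 244.5 CPM in Il22r+/+ and 127, 202 and 76.9 CPM in Il22r-/-. The Il22r-/- libraries were all lower but spread widely, and the log2 difference of -0.80 ± 0.34 was not called (edgeR adjusted p = 0.109). Without Il22r-/- replicate 2 it was called lower (-1.22, adjusted p = 0.00212), as it was in limma on log2(FPKM + 1) and log2(FPKM + 0.1) (0.0448 and 0.0488), in a range up to 0.3. The 12 macrophage markers, cells in which Apoe is known to be high, summed to 62.3, 91.0 and 30.9 CPM in Il22r-/- replicates 1 to 3, the same order of libraries as Apoe. In Il22r+/+ they summed to 11.6, 10.98 and 13.8 CPM. The order in Il22r-/- was not particular to Apoe, since Pmvk (10.0, 13.8 and 6.24 CPM) and Npc2 (257, 262 and 191 CPM) shared it. So did the summed endothelial markers (5.619, 7.149 and 4.205 CPM), while Abca1 (141, 201 and 236 CPM) did not. The part of macrophages in the Apoe values was not tested.

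**Figure D5:**
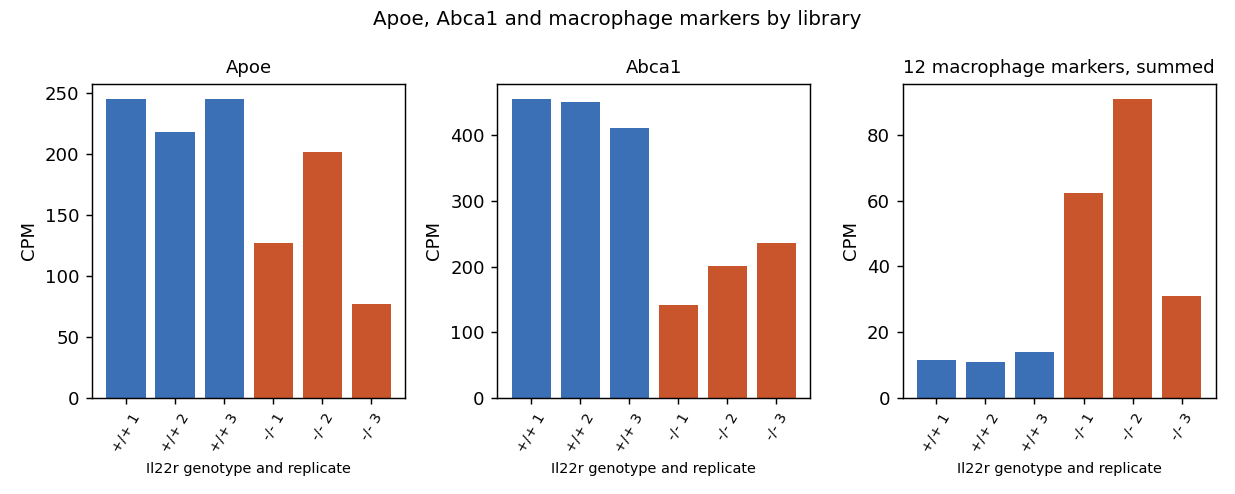
CPM of Apoe, of Abca1 and of 12 macrophage markers summed (bars from 0, one per library). In the Il22r-/- libraries Apoe and the marker sum are highest in replicate 2 and lowest in replicate 3, and Abca1 is highest in replicate 3. Pmvk and Npc2, not drawn here, have the order of Apoe too.

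Levels between the members are comparable only per length. In Il22r+/+ Scap, Apoe, Sc5d, Soat1, Abca1 and Npc2 led, and Abca1 (43.6 ± 2.42 FPKM) and Npc2 (43.4 ± 2.37 FPKM) did not differ beyond their spread. In Il22r-/- the order of the means was Apoe, Scap, Npc2, Soat1, Sc5d and Hmgcs1, with Npc2 at 43.9 ± 7.10 FPKM. The Il22r-/- libraries of Npc2 (35.7 to 48.6 FPKM) overlapped those of Scap (45.5 to 57.1 FPKM). Those of Apoe (36.6 to 95.15 FPKM) overlapped both. There the libraries of Sc5d (23.3 ± 2.80 FPKM) overlapped those of both Soat1 (26.0 ± 4.58) and Hmgcs1 (21.7 ± 0.971). The lowest Soat1 value, 23.05 FPKM, lay just above the highest Hmgcs1 value, 22.8 FPKM. Fdps and Abcg1 were lowest in both genotypes.

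A further 50 genes around the same pathway were listed by function, and 47 were tested. Of these 15 were called lower (31.9%, against 22.1% of all tested genes and 72.7% of the members). Another 4 were called higher, against 23.6% of all tested genes. In either direction 40.4% were called, below the 45.7% of all tested genes. The log2 change was negative in 32 of the 47 and in 7282 of all 15227 tested genes. The medians were -0.21 and 0.03. Abcg5, Abcg8 and Apoc1 had too few reads for a test. Among the 15 neighbours of uptake and transport 6 fell and 2 rose, among 10 regulators 2 fell and 1 rose, and among 8 enzymes of the isoprenoid side branches 2 fell and 1 rose.

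The largest fall in that list was that of Ch25h, which makes 25-hydroxycholesterol, an oxysterol that blocks SREBP processing: it had 12.1, 12.8 and 13.9 CPM in Il22r+/+ and 1.37, 1.44 and 2.56 CPM in Il22r-/- (log2 change -2.87 ± 0.23, edgeR adjusted p = 6.16e-06). Acss2, which makes acetyl-CoA from acetate, changed by -1.08 ± 0.12, Srebf1, the gene of the related factor SREBP1, by -0.97 ± 0.12, and the lipoprotein receptor gene Lrp1 by -0.78 ± 0.11, with no overlap between the groups in any of these. Cyp7b1, an oxysterol hydroxylase, changed by -1.02 ± 0.32 and lost its call without Il22r+/+ replicate 3 (edgeR adjusted p = 0.103), without Il22r-/- replicate 1 (0.0706) or 2 (0.0549) and in limma on unfiltered FPKM (0.0573), in a range from 0.0153.

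The 4 neighbours that rose were Gramd1b, Pdss1, Erlin1 and Cav1. Gramd1b, a carrier that moves cholesterol from the plasma membrane to the endoplasmic reticulum, had 95.3, 88.1 and 89.3 CPM in Il22r+/+ and 189, 202 and 205 CPM in Il22r-/-, so that every Il22r-/- library lay far above (log2 change 1.13 ± 0.07). Pdss1, which makes the side chain of coenzyme Q, changed by 0.95 ± 0.20, and Erlin1, which binds cholesterol in the endoplasmic reticulum and restrains SREBP, by 0.81 ± 0.11. Cav1, the caveolar coat gene, changed by 0.26 ± 0.09 (edgeR adjusted p = 0.0413), a call that was lost without any 1 of 5 libraries (0.187, 0.0754 and 0.103 without Il22r+/+ replicate 1, 2 or 3, 0.131 and 0.0531 without Il22r-/- replicate 1 or 3) and in 5 other alternatives, in a range from 0.00789. The liver X receptor genes themselves were not called, Nr1h2 at 90.3 ± 4.59 and 88.6 ± 3.22 CPM and Nr1h3 at 3.21 ± 0.926 and 1.97 ± 0.324 CPM (log2 difference -0.70 ± 0.29, edgeR adjusted p = 0.0696).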

How the data were processed

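RNA of 6 libraries, 3 per genotype, was grouped by the titles. The authors deposited raw read counts per Ensembl gene and FPKM values; the counter was featureCounts 1.5.0-p3 and the build mm10 (per the submitters' processing notes), while aligner, strandedness and any read filter are not given in the sources here. In the deposited FPKM values, count over length gave 1 constant per library, 0.937 to 1.05 times the count total, so the authors had used rescaled totals. Counts were filtered (filterByExpr), TMM-scaled and tested as deposited with edgeR 4.0.16 (robust quasi-likelihood fit, genotype as the only term), Benjamini-Hochberg adjusted over 15227 genes and called under 0.05. Errors of log2 changes are standard errors, others SDs over 3 libraries. Alternatives used DESeq2 1.42.0, limma 3.58.1 and R 4.3.3.

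The members, gene lists, motifs and tests were chosen with earlier results of these data known. In each role, values in every library are given for up to 4 called members with the largest change, for the most abundant member and for members against their role's direction; of the neighbour list, up to 5 called genes per direction with at least 1 CPM are named. Exon overlaps and shared 50-base stretches came from GENCODE M21 (mm10), and promoters from RefSeq on GRCm38.p6; the promoters printed were chosen after the values were seen. A few genes of the pathway are not reported here.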

Additional observations from a re-analysis of the deposited data

How the results depend on the processing

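Over 16 alternatives (DESeq2's Wald test or size factors, library size alone, limma-voom, no filter and a stricter filter, limma on FPKM values, a replicate block and each library left out in turn), 23 of the 25 called members kept the same call in all of them, the exceptions being Mvk and Fdps. Over the members and alternatives together, 511 of 528 results kept their side of the threshold, 9 lost a call and 8 gained one, and no call reversed. Between 22 and 26 members were called lower, and 1 was called higher in each alternative except without Il22r-/- replicate 3, where 2 were. Of the neighbour list, 7 genes rather than 4 were called higher with library size as the only scaling. That scaling moved the median log2 change of all genes from 0.029 to 0.132 and the share of calls that were higher from 51.6% to 63.6%; 23 members were still called lower and 1 higher.

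No shared deviation was seen between libraries of the same replicate number, with correlations of deviations of 0.026, -0.041 and -0.028. These values cannot show whether such libraries were prepared together. With a replicate block, 24 members were called lower and 1 higher, and 6405 genes were called instead of 6963. The standard errors of the log2 changes were widest for Apoe (0.34), Pmvk (0.29) and Fdps (0.22). The coefficient of variation between Il22r-/- libraries was 46.5% for Apoe and 37.6% for Pmvk, and the counts of Fdps were 46 to 81 per library, the fewest of the members. The part of depth in these errors was not tested.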
